A study of Mus musculus with 8 samples.

Results

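The Ikaros family is a small set of zinc-finger transcription factors of lymphocytes. The genes described here are Ikzf1 (Ikaros), Ikzf2 (Helios), Ikzf3 (Aiolos) and Ikzf5 (Pegasus), chosen by symbol, and all 4 had a row in both sets of tables, among 11725 genes listed in both. Ikzf4 (Eos), the remaining family gene, is given beside them. Expression was measured by RNA sequencing of sorted mouse thymocytes in 4 groups of 2 libraries. All mice carried loxP-flanked alleles of Bcl6, a transcriptional repressor gene. The groups labelled KO were Bcl6fl/fl Cd4cre, and the groups labelled WT were Bcl6fl/fl without Cre. No group carried Cd4cre alone, so an effect of Cre and an effect of the deletion cannot be told apart. In the in vitro system, sorted CD4+CD8+ (double-positive) thymocytes were cultured for 24 h with antibodies to CD3 (8 µg/ml) and CD28 (8 µg/ml), and cells that had lost both coreceptors were then sorted. For the in vivo libraries, CD4-CD8-CD5+TCRβ+ thymocytes, the gate of agonist-selected precursors, were sorted directly. Cd4cre acts in thymocytes from the stage at which Cd4 is switched on. The labels give no animal age, and nothing in them says that replicates are separate mice or cultures. The p-values therefore describe the spread between these libraries alone, and that spread may be technical.

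Ikaros-family proteins bind DNA through zinc fingers near the amino terminus and pair with one another through fingers at the carboxy terminus. They recruit the NuRD and SWI/SNF chromatin complexes, and Ikaros restrains Notch target genes in thymocytes. Helios is known for its high level in thymocytes that receive strong T cell receptor signals, both regulatory T cell precursors and agonist-selected precursors of CD8αα intraepithelial lymphocytes. Aiolos is known from B cells and from T cells past early development. Eos partners FOXP3 in regulatory T cells, and Pegasus is the most divergent member, with a different DNA recognition sequence.

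The transcripts are alike in places, so whether reads could be split between paralogs was checked first. No 50-base run was shared between the protein-coding transcripts of any pair of the 5 genes in the GENCODE M21 annotation (mm10). The longest shared run was 32 bases, between Ikzf2 and Ikzf4. A 90-base coding window of Ikzf1 and Ikzf2 in the last coding exon is shown, with the Ikaros transcript beside that of Helios. It lies near the end of the coding sequence, where the carboxy-terminal fingers are encoded. The window was picked as the place where Ikzf1 was most alike to Ikzf2 and Ikzf3 together within single exons. Its identity is therefore not that of the whole coding sequences. Capitals mark each base of Ikzf2 that differs from Ikzf1.
Ikzf1: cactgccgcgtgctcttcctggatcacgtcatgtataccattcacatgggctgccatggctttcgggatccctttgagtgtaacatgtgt
Ikzf2: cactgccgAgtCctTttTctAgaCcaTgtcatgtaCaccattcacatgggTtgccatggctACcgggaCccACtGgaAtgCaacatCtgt
These windows are at chr11:11769417-11769506 (plus strand, exon 9 of Ikzf1) and chr1:69538837-69538926 (minus strand, exon 8 of Ikzf2). Ikzf2 differed from Ikzf1 at 18 of the 90 bases, an identity of 80.0%, and the longest identical stretch was 14 bases.

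Depth was 14754440 to 23975636 counts per library. In vitro libraries were made by one company and in vivo libraries by another, so a level that differs between systems cannot be told apart from the company or the separate normalization, and the KO label was tested only within a system. Bcl6 itself did not follow its label. Its level in FPKM, a measure of fragments scaled to transcript length and library depth, was 64.6 and 61.0 in vitro under the KO label, against 24.9 and 21.9 under the WT label. In vivo it was 8.81 and 14.4 under the KO label against 11.5 and 13.9 under the WT label. Gene-level counts pool the deleted and the remaining exons, so they do not check the labels, and each direction below is that of libraries labelled KO relative to libraries labelled WT. The T cell gene Cd3e was at 88.8 to 123 FPKM in every library. The coreceptor gene Cd8a was at 1.17 to 10.9 FPKM, while Cd4, a gene of the gate, reached 78.4 FPKM in KO replicate 2 and 55.0 FPKM in WT replicate 2 in vivo.

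In stimulated cells in vitro, Helios and Aiolos transcripts were lower under the KO label, while the Ikaros transcript differed by less than its error. Ikzf2 fell to 0.621 of its WT level, and Ikzf3 to 0.769 of its WT level. Neither Ikzf1 nor Ikzf4 passed the test. Helios was a smaller part of the family's transcripts under the KO label.

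Ikzf2 (chr1:69531214-69687245, minus strand) had 74.7 and 70.6 FPKM in vitro under the KO label, against 116 and 123 FPKM under the WT label. Both KO libraries lay below both WT libraries, as for 38.6% of tested genes, and the gap was wider than the spread within either group. The log2 fold change was -0.69 (SE 0.11, n = 2 per group), with a Benjamini-Hochberg adjusted p of 0.000541 by the quasi-likelihood test of edgeR. The counts behind it were 15379 and 17802 under the KO label and 32282 and 23250 under the WT label, so counting error is small beside the difference. Of 9658 genes tested in vitro, 37.8% passed the adjusted threshold of 0.05 (17.7% fell and 20.1% rose), so a call by itself was common in this comparison. The split was 1940 risen and 1709 fallen here, 1717 and 1868 with limma on log2(FPKM + 1), and 1928 and 1114 with limma on log2(TPM + 1). In size, 3.04% of tested genes had a lower log2 fold change than Ikzf2.

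Ikzf3 (chr11:98464902-98546031, minus strand), the Aiolos gene, had 82.2 and 79.9 FPKM in vitro under the KO label, against 113 and 102 FPKM under the WT label. Both KO libraries were below both WT libraries, as for 38.6% of tested genes, and 71.1% did not overlap in one direction or the other. The log2 fold change was -0.38 (SE 0.10; edgeR adjusted p = 0.0133), and 12.3% of tested genes had a lower one. The call held without WT replicate 2 (edgeR adjusted p = 0.00567) and was lost without any other library. The adjusted p was 0.0594 without KO replicate 1, 0.0758 without KO replicate 2 and 0.0763 without WT replicate 1, and the log2 fold change was -0.40, -0.36 and -0.30 in those fits.

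Ikzf1 (chr11:11685003-11772926, plus strand), the founding member, had the highest FPKM of the family in every library. That order depends on the transcript lengths used for FPKM. In counts, Ikzf2 was above Ikzf1 in both in vitro WT libraries (32282 and 23250 against 26112 and 16759). The same held in in vivo WT replicate 2 (15415 against 15396). In vitro Ikzf1 had 181 and 180 FPKM under the KO label, against 188 and 178 FPKM under the WT label. The KO values thus lay inside the WT range. The log2 fold change was 0.01 (SE 0.10; edgeR adjusted p = 0.967). It was below 0 with no filter, with the filter of edgeR, with limma on log2 FPKM and without WT replicate 2, and stayed between -0.03 and 0.07 in all 13 alternatives. Ikzf4 (chr10:128630843-128645991, minus strand), at 8.74 and 8.33 FPKM under the KO label and 7.68 and 8.59 FPKM under the WT label, differed by 0.10 on the log2 scale (SE 0.09; adjusted p = 0.441 by edgeR).

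**Figure D1:**
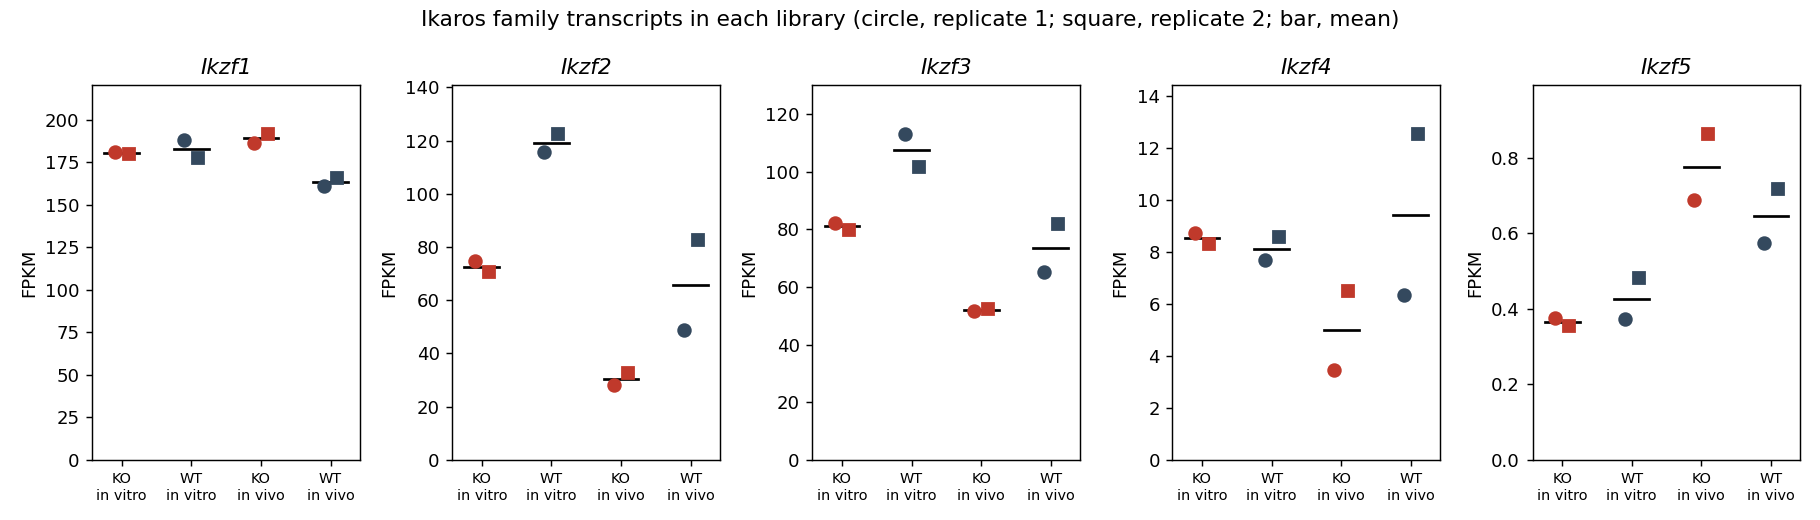
FPKM of each family gene (vertical axis, one scale per gene, starting at 0) in the 8 libraries, with KO in red and WT in dark blue, circles for replicate 1, squares for replicate 2 and bars for group means. Ikzf2 and Ikzf3 sit lower in both KO libraries than in both WT libraries in each system, Ikzf1 in vitro lies between 178 and 188 FPKM in all 4 libraries, and the 2 WT libraries in vivo stand apart from each other at Ikzf2 and Ikzf4.

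In agonist-selected cells in vivo, the same genes had the lower values under the KO label, but none of the 4 tested family genes passed the threshold. The WT replicates stood farther apart here than in vitro at Ikzf2, Ikzf3 and Ikzf4. Of 10227 genes tested in vivo, 1.1% passed (0.821% fell and 0.284% rose), so calls were rare in this comparison, and 43.4% had groups that did not overlap in one direction or the other. By unadjusted p under 0.05, 1445 genes passed, Ikzf2 and Ikzf3 among them.

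Ikzf2 had 28.0 and 32.7 FPKM in vivo under the KO label, against 48.9 and 82.5 FPKM under the WT label. Both KO libraries were below both WT libraries, which 21.4% of tested genes also showed, and the WT replicates were farther from each other than WT replicate 1 was from KO replicate 2. The log2 fold change was -1.12 (SE 0.25, n = 2 per group; edgeR adjusted p = 0.117, unadjusted p = 0.00367), and 1.45% of tested genes had a lower one. It was -0.69 without WT replicate 2 (edgeR adjusted p = 0.135) and -1.45 without WT replicate 1 (edgeR adjusted p = 0.0172). DESeq2 on the same 4 libraries gave an adjusted p of 2.07e-05, and edgeR on all 8 libraries one of 0.011, so the fits that were run did not give the same call for Ikzf2 in vivo.

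Ikzf3 had 51.8 and 52.4 FPKM in vivo under the KO label, against 65.1 and 81.8 FPKM under the WT label. The KO replicates were nearly equal and both were below the WT replicates, as for 21.4% of tested genes. Its log2 fold change was -0.50 (SE 0.14; edgeR adjusted p = 0.169), with an adjusted p of 0.0164 by DESeq2, 0.0411 by edgeR on all 8 libraries and 0.0455 by edgeR without WT replicate 1. Without WT replicate 2 the log2 fold change was -0.32 (edgeR adjusted p = 0.259).

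Ikzf1 had 186 and 192 FPKM in vivo under the KO label, against 161 and 166 FPKM under the WT label. The groups did not overlap, with KO the higher, as for 22% of tested genes. The log2 fold change was 0.20 (SE 0.11; edgeR adjusted p = 0.484). Ikzf4 had 3.48 and 6.51 FPKM under the KO label and 6.34 and 12.6 FPKM under the WT label, so the groups overlapped. In both genotypes replicate 2 had the higher Ikzf4 value, and the log2 fold change was -0.93 (SE 0.39; edgeR adjusted p = 0.366).

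**Figure D2:**
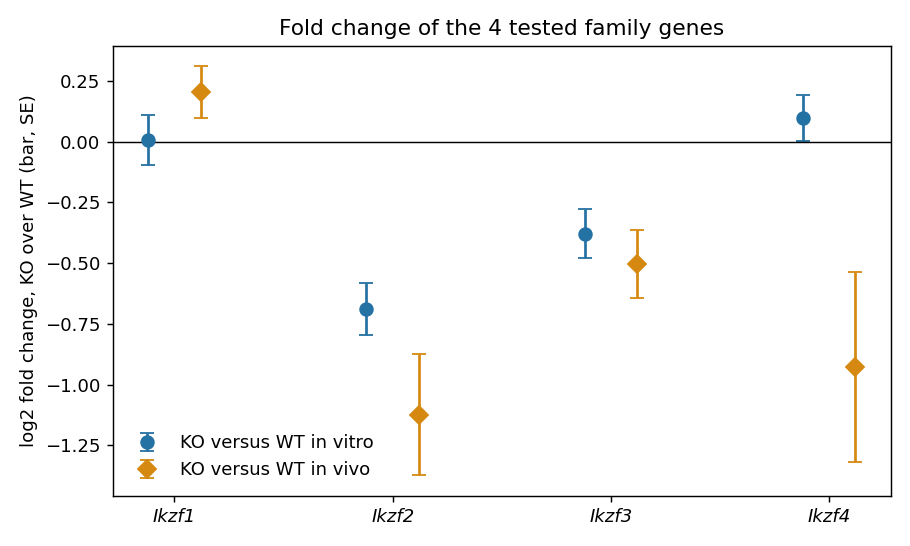
Log2 fold change of the libraries labelled KO over those labelled WT (vertical axis) for the 4 tested family genes, in vitro (circles) and in vivo (diamonds), with bars of 1 SE from edgeR. Ikzf2 is at -0.69 in vitro and -1.12 in vivo, Ikzf3 at -0.38 and -0.50, Ikzf1 at 0.01 and 0.20, and Ikzf4 at 0.10 and -0.93, with the widest bar for Ikzf4 in vivo.

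**Figure D3:**
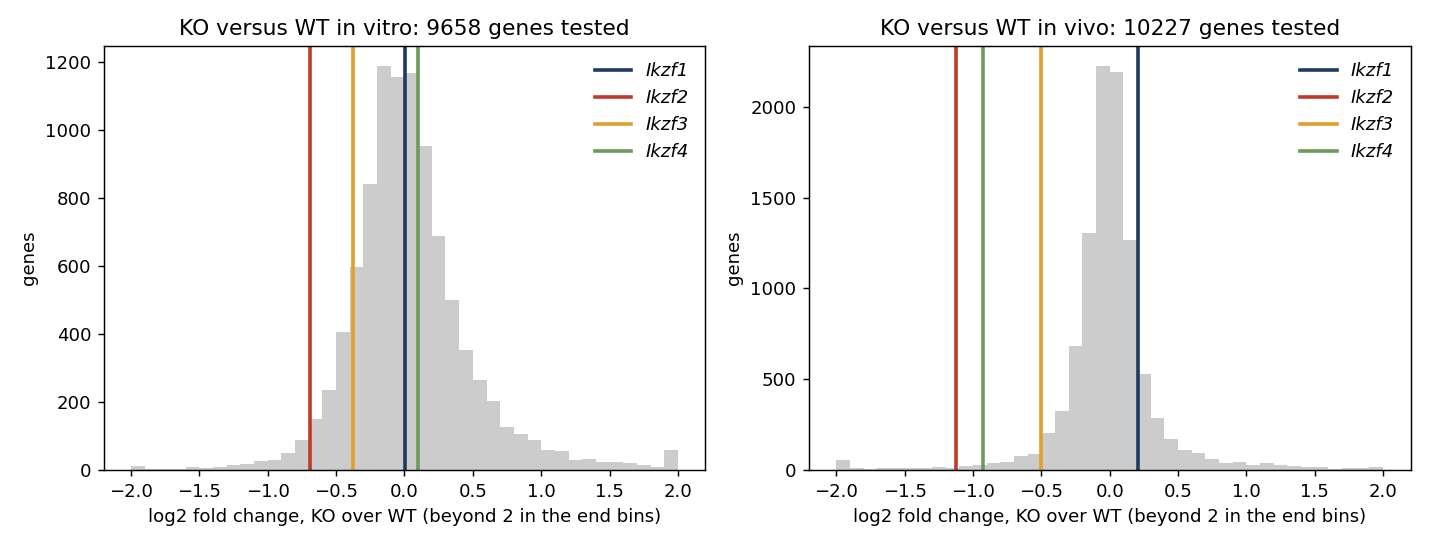
Number of tested genes (vertical axis) by log2 fold change of KO over WT (horizontal axis, values beyond 2 placed in the end bins), with colored lines at the 4 tested family genes. In vitro the Ikzf2 line at -0.69 has 3.04% of tested genes below it, and in vivo the Ikzf2 line at -1.12 has 1.45% below it, while Ikzf1 is near the middle in vitro.

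The effect of the KO label was also compared between systems, as the in vivo minus the in vitro log2 fold change over 9364 genes, of which 16.4% passed (6.57% with a positive and 9.81% with a negative difference). For Ikzf2 this difference was -0.40 (SE 0.27; edgeR adjusted p = 0.327), for Ikzf3 -0.10 (SE 0.16; edgeR adjusted p = 0.727) and for Ikzf1 0.22 (SE 0.14; edgeR adjusted p = 0.297). None passed, so a larger effect on Helios in vivo was not shown, and the errors leave room for sizeable differences. The Ikzf2 difference was 0.00093 without in vivo WT replicate 2 and -0.72 without in vivo WT replicate 1 (edgeR adjusted p = 0.997 and 0.0128). For Ikzf4 it was -0.99 (SE 0.41; edgeR adjusted p = 0.123).

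Ratios within a library do not depend on how libraries were scaled to each other. The size of a ratio, and of the shares given below, does depend on the transcript lengths used for FPKM. In vitro the FPKM ratio of Ikzf2 to Ikzf1 was 0.412 and 0.393 under the KO label, against 0.615 and 0.690 under the WT label. In vivo it was 0.150 and 0.171 under the KO label, against 0.304 and 0.498 under the WT label. The KO libraries were the lower ones in each system, without overlap. In FPKM, 71.1% of tested genes in vitro and 43.4% in vivo did not overlap in one direction or the other. No such share was computed for ratios. The ratio of Ikzf3 to Ikzf1 was 0.454 and 0.445 in vitro under the KO label, against 0.601 and 0.572 under the WT label. In vivo it was 0.278 and 0.273 under the KO label, against 0.405 and 0.494 under the WT label. The ratios are given as a description and were not tested.

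Summed over the 5 genes, family transcripts came to 347 and 339 FPKM in vitro under the KO label, against 425 and 411 FPKM under the WT label. In vivo the sums were 270 and 284 FPKM under the KO label, against 282 and 343 FPKM under the WT label, where the groups overlapped. Helios made up 21.5% and 20.8% of the family sum in vitro under the KO label, against 27.2% and 29.8% under the WT label. In vivo its share was 10.3% and 11.5% under the KO label, against 17.3% and 24.0% under the WT label. The Ikaros share was the higher under the KO label, at 68.9% and 67.4% in vivo, against 57.1% and 48.3% under the WT label. Shares of a sum are tied to each other, so lower Ikzf2 and Ikzf3 levels by themselves raise the Ikaros share.

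**Figure D4:**
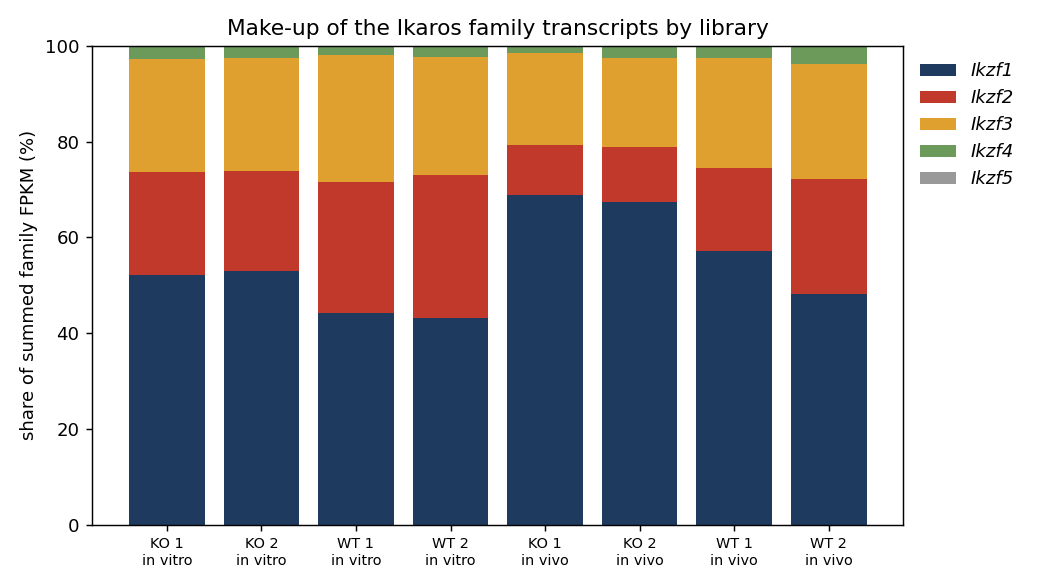
Share of the summed FPKM of the 5 family genes (vertical axis, percent) in each of the 8 libraries, stacked by gene. The Ikzf2 part is 20.8% to 21.5% in the in vitro KO libraries and 27.2% to 29.8% in the in vitro WT libraries, and 10.3% to 11.5% in KO and 17.3% to 24.0% in WT in vivo; Ikzf5 is too small to see.

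As group means, Ikzf2 was at 72.6 ± 2.86 FPKM in vitro under the KO label and 119 ± 4.76 FPKM under the WT label, and at 30.3 ± 3.36 FPKM in vivo under the KO label and 65.7 ± 23.8 FPKM under the WT label (SD, n = 2 each). The highest mean was that of in vitro WT and the lowest that of in vivo KO. Between them, the in vitro KO values lay inside the range of the 2 in vivo WT libraries. Levels were not tested between systems, where they cannot be told apart from the company, so the order of the means is a description. Ikzf3 had the same order, at 81.1 ± 1.63 FPKM in vitro under the KO label and 107 ± 8.16 FPKM under the WT label, and at 52.1 ± 0.444 FPKM in vivo under the KO label and 73.4 ± 11.8 FPKM under the WT label. Its in vitro KO values overlapped the in vivo WT values. The group means of Ikzf1 were closer together, with the outermost 2 both in vivo, at 189 ± 3.80 FPKM under the KO label and 163 ± 3.42 FPKM under the WT label. In every library Ikzf1 was above at least 98.6% of listed genes in FPKM. Ikzf2 was above 85.7% and 88.0% of listed genes in the in vivo KO libraries, against 93.3% and 97.1% in the in vivo WT libraries.

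Ikzf5 (chr7:131388652-131410521, minus strand) was rare, with 0.374 and 0.354 FPKM in vitro under the KO label, against 0.371 and 0.481 FPKM under the WT label. In vivo it had 0.687 and 0.863 FPKM under the KO label, against 0.574 and 0.717 FPKM under the WT label. The groups overlapped in both systems. No library reached 1 FPKM, so the gene was below the expression filter and had no test, and its counts were 38 to 79 per library. Its mean log2 difference was -0.19 in vitro and 0.25 in vivo, near the spread between replicates (0.20 and 0.23). With the filter of edgeR it could be tested and did not pass (edgeR adjusted p = 0.598 in vitro and 0.777 in vivo). Of its annotated exonic bases 81.3% are shared with exons of Pstk, a kinase gene on the opposite strand which had more counts, at least 272 per library. The strand setting of the counting is not given in the sources used here, so reads of these genes may not be told apart and the Ikzf5 level is uncertain.

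Fewer cells of a type and less RNA per cell cannot be told apart in bulk samples, and Helios and Eos are also expressed by regulatory T cells. In vitro the defining regulatory T cell gene Foxp3 was at 0.296 and 0.342 FPKM under the KO label, against 0.373 and 0.468 FPKM under the WT label. Of the 6 regulatory T cell markers tested in vitro 2 rose, Capg (log2 fold change 2.03, SE 0.11) and Ctla4 (0.68, SE 0.24), and Il2ra (-1.98, SE 0.14) fell, so this list did not move one way. Among all genes tested in vitro 20.1% rose and 17.7% fell. In vivo Foxp3 was at 3.36 and 14.1 FPKM under the KO label, against 8.12 and 17.3 FPKM under the WT label. Replicate 2 was the higher in both genotypes, as for Ikzf4. KO replicate 2 and WT replicate 2 had Foxp3 at 14.1 and 17.3 FPKM, and Ikzf2 at 32.7 and 82.5 FPKM. KO replicate 1 and WT replicate 1 had Foxp3 at 3.36 and 8.12 FPKM, and Ikzf2 at 28.0 and 48.9 FPKM. The part of regulatory T cells in the Ikzf2 values was not tested in either system. Of the 7 regulatory T cell markers tested in vivo, Ikzf4 and Il2ra among them, none passed, and their sum was 196 and 236 FPKM under the KO label, against 210 and 191 FPKM under the WT label. Capg made up much of that sum, and without it the sum was 66.2 and 120 FPKM under the KO label, against 85.2 and 117 FPKM under the WT label, with replicate 2 the higher in both genotypes.

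Markers of other cells also differed between in vivo libraries. The summed myeloid markers, of which 6 of 7 were tested and none passed, were 337 and 176 FPKM under the KO label, against 157 and 84.6 FPKM under the WT label. Fcer1g made up much of that sum, at 187 and 146 FPKM under the KO label and 110 and 64.5 FPKM under the WT label. Lyz2 was at 109 and 15.7 FPKM under the KO label and 25.6 and 10.7 FPKM under the WT label. The groups thus overlapped at Lyz2. The B cell markers, of which 5 of 7 were tested and none passed, summed to 27.6 and 20.3 FPKM under the KO label, against 15.7 and 4.93 FPKM under the WT label. The innate-like T and NK markers, of which 5 of 7 were tested and none passed, summed to 419 and 381 FPKM under the KO label, against 391 and 250 FPKM under the WT label, and Ncr1 was at 0 in WT replicate 2. Double-positive thymocyte and coreceptor genes, 8 of 9 tested with none passing, summed to 138 and 157 FPKM under the KO label, against 96.6 and 115 FPKM under the WT label. The gamma delta T cell markers, 3 of 7 tested with none passing, summed to 113 and 68.5 FPKM under the KO label, against 120 and 76.1 FPKM under the WT label. Within that sum, markers went opposite ways. Sox13 was at 48.4 and 31.4 FPKM under the KO label and 21.0 and 15.4 FPKM under the WT label (log2 fold change 1.13, SE 0.24). Blk was at 34.2 and 15.8 FPKM under the KO label and 65.5 and 39.9 FPKM under the WT label (-1.08, SE 0.38). Maf had -0.08 (SE 0.26). WT replicate 2, the library with the most Ikzf2, Ikzf3 and Ikzf4, had the least myeloid, B cell and innate-like signal, and the part of these cells in the Ikzf2 and Ikzf3 values was not tested.

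Markers differed between the in vitro groups too, where 20.1% of all tested genes rose and 17.7% fell. The B cell markers Cd79b (log2 fold change 0.90, SE 0.21) and Cd79a (0.98, SE 0.30) rose, although Cd79a passed the expression filter only through the KO libraries. The summed B cell markers were 5.06 and 5.76 FPKM under the KO label, against 2.95 and 2.85 FPKM under the WT label, and 5 of the 7 had no row. The myeloid sum was 4.58 and 4.42 FPKM under the KO label, against 3.98 and 4.23 FPKM under the WT label, and the innate-like and gamma delta lists had no tested member. Of 8 T cell markers 5 rose and 1 fell. Thy1 was at 20.9 and 18.0 FPKM under the KO label, against 3.06 and 4.56 FPKM under the WT label (log2 fold change 2.40, SE 0.16), Cd247, Lck, Cd2 and Cd3d also rose, and Cd3e fell (-0.26, SE 0.09). Of 6 tested double-positive and coreceptor genes, Cd4 (0.72, SE 0.09), Cd1d1 (0.45, SE 0.09) and Cd8b1 (0.76, SE 0.21) rose, while Dntt (-1.01, SE 0.17) and Cd8a (-0.42, SE 0.10) fell. The part of these shifts in the Ikzf2 and Ikzf3 values in vitro was not tested.

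**Figure D5:**
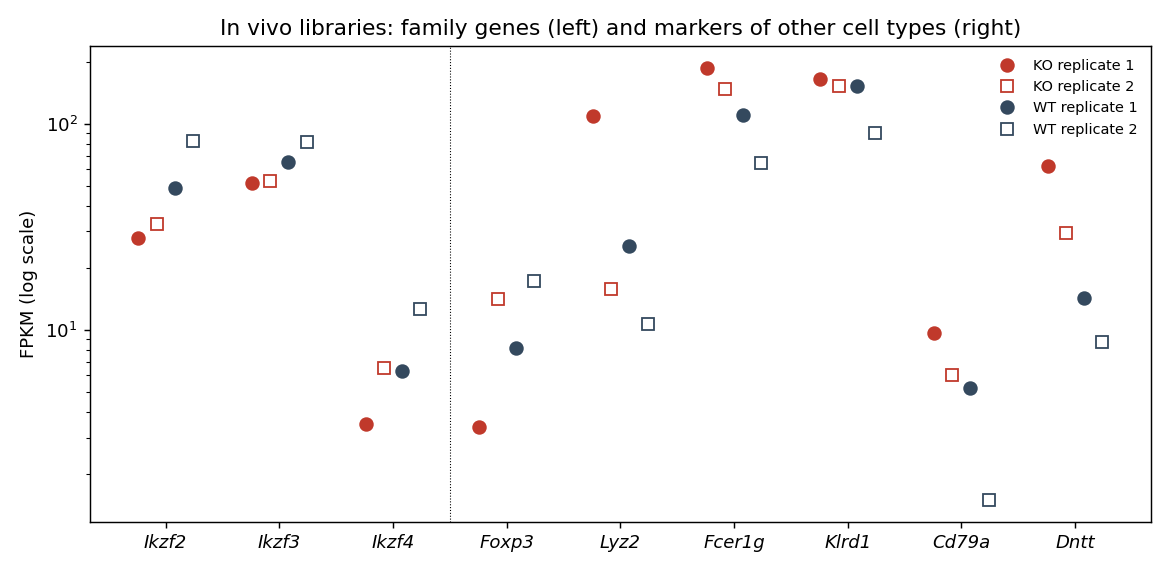
FPKM on a log scale (vertical axis) of 3 family genes and of markers of regulatory T (Foxp3), myeloid (Lyz2, Fcer1g), NK or innate-like (Klrd1), B (Cd79a) and double-positive (Dntt) cells in the 4 in vivo libraries, KO in red and WT in dark blue. WT replicate 2 has the highest Ikzf2 (82.5 FPKM) and the lowest Cd79a (1.49 FPKM), and Foxp3 is higher in replicate 2 of both genotypes.

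Some genes of the complexes that the family recruits passed the test in vitro, and the counts are read against 20.1% risen and 17.7% fallen among all genes tested in vitro. Of 14 NuRD subunits tested in vitro, 2 rose and 2 fell. The histone deacetylases Hdac1 (log2 fold change -0.42, SE 0.09) and Hdac2 (-0.31, SE 0.08) fell, while the scaffold subunit Mta3 (0.61, SE 0.09) and the helicase Chd3 (0.31, SE 0.10) rose. The Mi-2β helicase gene Chd4, the main NuRD partner of Ikaros, was at 125 and 129 FPKM under the KO label and 145 and 135 FPKM under the WT label. Its log2 fold change was -0.11 (SE 0.10), with an edgeR adjusted p of 0.423. In vivo none of the 14 passed, with Hdac1 at -0.31 (SE 0.10), and for none of the 14 did the difference between systems pass. The Hdac2 call in vitro was lost without KO replicate 2 (edgeR adjusted p = 0.0650) or WT replicate 2 (0.0535), and that of Chd3 without KO replicate 2 (0.208) or WT replicate 2 (0.0895). The list median was -0.04 in vitro and 0.02 in vivo, beside 0.00 over all tested genes in both systems.

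Of 16 SWI/SNF subunits tested in vitro, 5 rose and none fell, with a list median of 0.09. They include the ATPase Smarca2 (0.86, SE 0.10), the core subunit Smarcc2 (0.52, SE 0.08), the bromodomain subunit Brd9 (0.40, SE 0.09) and the DNA-binding subunit Arid1a (0.33, SE 0.10). None of 15 tested passed in vivo. The Arid1a call was lost without KO replicate 1 (edgeR adjusted p = 0.0668), KO replicate 2 (0.0983) or WT replicate 2 (0.0672). Of 8 tested genes of the CtBP and Sin3 corepressors, Sap30 (0.77, SE 0.10) and Sin3b (0.27, SE 0.08) rose in vitro and none fell. The Sin3b call was lost without KO replicate 2 (edgeR adjusted p = 0.163), WT replicate 1 (0.0844) or WT replicate 2 (0.0891). In vivo none of the 8 passed, with Sap30 at 13.4 and 10.1 FPKM under the KO label and 6.09 and 5.01 FPKM under the WT label, a log2 fold change of 1.07 (SE 0.22). In the cereblon ubiquitin ligase, which degrades Ikaros and Aiolos in human cells given thalidomide-type drugs, 2 of 8 tested genes fell in vitro, the cullin regulator Glmn (-0.53, SE 0.13) and the RING subunit Rbx1 (-0.26, SE 0.08). The Rbx1 call was lost without KO replicate 2 (edgeR adjusted p = 0.101), WT replicate 1 (0.135) or WT replicate 2 (0.0766). None of the 8 passed in vivo. The substrate receptor Crbn had a log2 fold change of 0.03 (SE 0.10) in vitro and 0.05 (SE 0.11) in vivo.

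Notch pathway genes that Ikaros is known to restrain did not move one way in vitro, where the list median was -0.53. In vitro 5 of the 11 listed genes passed the expression filter. The receptor Notch1 (1.24, SE 0.09) rose. Its relative Notch3, at 1.79 and 1.44 FPKM under the KO label and 0.742 and 0.832 FPKM under the WT label, passed the filter only through the KO libraries, so its difference is partly fixed by the filter. The interleukin-2 receptor chain Il2ra (-1.98, SE 0.14), Myc (-0.53, SE 0.10) and the ubiquitin ligase Dtx1 (-0.65, SE 0.23) fell. Dtx1 was near the filter, at 0.834 and 1.11 FPKM under the KO label and 1.85 and 1.25 FPKM under the WT label. Only its WT libraries both reached 1 FPKM, so its difference may also be partly fixed by the filter. In vivo none of 8 tested passed, but all 8 had a positive log2 fold change. Their median was 0.48, beside 0.00 over all tested genes. Notch3 passed the filter in vivo only through the KO libraries as well. At Ptcra and Nrarp, too, only the KO libraries both reached 1 FPKM in vivo. The listed genes Heyl and Hey1, not tested, had lower FPKM in both KO libraries than in both WT libraries in vivo, as 21.4% of tested genes did. There Notch1 was at 27.8 and 22.6 FPKM under the KO label and 17.8 and 15.9 FPKM under the WT label.

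Genes of agonist selection, the process Helios marks, were lower in part. In vitro 7 of 17 tested fell and 3 rose, with a median of -0.10, beside 17.7% fallen and 20.1% risen over all tested genes. This list, too, was chosen with earlier results of these data known. The inhibitory receptor Pdcd1 (-0.96, SE 0.11), the receptor Cd160 (-1.21, SE 0.10) and the nuclear receptor Nr4a3 (-1.21, SE 0.10) fell, while the early response factor Egr3 (1.69, SE 0.09) rose. In vivo 3 of 17 fell and none rose, with a median of -0.39, beside 0.821% fallen and 0.284% risen over all tested genes. Lag3 was at 2.73 and 2.96 FPKM under the KO label, against 12.1 and 14.6 FPKM under the WT label, and fell by 2.23 on the log2 scale (SE 0.17; edgeR adjusted p = 0.0179). Pdcd1 fell as well, at -1.18 (SE 0.12; edgeR adjusted p = 0.0185) and so did Cd160, at -0.63 (SE 0.09; edgeR adjusted p = 0.0393). Without WT replicate 2 none of these 3 calls held (edgeR adjusted p = 0.0547 for Lag3, 0.0587 for Pdcd1 and 0.112 for Cd160), and those of Pdcd1 (0.0712) and Cd160 (0.204) were also lost without KO replicate 1, as was that of Cd160 without KO replicate 2 (0.125). Bcl2l11 (Bim), the death factor of strong T cell receptor signals, had 0.12 (SE 0.09) in vitro and -0.09 (SE 0.23) in vivo and passed in neither.

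Lymphocyte genes linked to Ikaros factors, among them genes the family binds or acts with, mostly rose in vitro, with 11 of 14 tested risen, 3 fallen and a median of 0.75. Over all genes tested in vitro 20.1% rose and 17.7% fell. The list was chosen with earlier results of these data known. The lineage factor Gata3 (1.66, SE 0.10), the interleukin-7 receptor Il7r (1.93, SE 0.18), the E protein inhibitor Id2 (1.89, SE 0.19) and the survival gene Bcl2 (0.96, SE 0.10) rose. In vivo none of 16 tested passed, with a median of 0.19. Gata3 came nearest there, at 63.9 and 62.9 FPKM under the KO label and 41.3 and 43.3 FPKM under the WT label (log2 fold change 0.58, SE 0.10; edgeR adjusted p = 0.0589).

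The genes most like Ikzf2 across the 8 libraries, by root mean square difference in log2 CPM (counts scaled to library size) after each system's mean was subtracted, were Ccnj (0.098), Fry (0.117) and Hsdl2 (0.119). The root mean square of Ikzf2 itself on that scale was 0.485. These genes were picked as the nearest, so their closeness and fold changes like those of Ikzf2 follow from the choice. Ccnj, a cyclin gene, had a log2 fold change of -0.65 (SE 0.09) in vitro and -0.93 (SE 0.21) in vivo. Fry had -0.48 (SE 0.09) in vitro and -0.95 (SE 0.18) in vivo. The nearest to Ikzf3 were Eya3 (0.049), Mrtfb (0.068) and Gsto1 (0.069), beside 0.230 for Ikzf3 itself. The search covered 9363 genes, and the libraries share their groups and scaling, so the likeness is a description.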

How the data were processed

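Counts and FPKM stand side by side in each deposited table, one table per library, and both columns are the authors' own, per the file headers. Trim Galore 0.4.4 and build mm10 are named in the submitters' processing notes, beside Subread, featureCounts, RSEM, Bowtie2 and DESeq2, with no role given. Annotation, strand setting and the tool behind each column: not given in the sources used here. The lowest mean count of a listed row was 5.0 in each system, so a gene with fewer counts has no row.

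The counts were tested with edgeR 4.0.16 (R 4.3.3, TMM, quasi-likelihood, two-sided) on the 4 libraries of a system, for genes at 1 FPKM or more in 2 or more libraries, with no replicate term. All adjusted p-values are Benjamini-Hochberg over every gene tested, with a threshold of 0.05, and each SE was derived from F as the size of the log2 fold change divided by its square root. The difference between systems came from a fit of all 8 libraries. FPKM values were used for description. The members and gene lists were chosen with earlier results of these data known. Named beside the members were up to 4 genes of each pathway list with the smallest adjusted p and the 3 genes nearest to each called member; Bcl2l11, Chd4, Crbn, Dtx1, the cell type markers and list genes short of the threshold were named after their values were seen. Replicates differed beyond sampling noise in all 4 groups (chi-square per degree of freedom 9.75 to 20.0). The tests were tried on simulated data first. Alternatives covered DESeq2 1.42.0, limma 3.58.1 with pseudocounts of 1 and 0.1, filters, scalings, a replicate block and the loss of each library, where a lone library is assumed to vary like the other groups. Loci and sequences come from GENCODE M21. One sequence is not reported here.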

Additional observations from a re-analysis of the deposited data

Results flagged for a closer look

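Of 30 named genes tested for it, 14 had an effect of the KO label that differed between the systems (in vivo minus in vitro log2 fold change, edgeR quasi-likelihood test over all 8 libraries, Benjamini-Hochberg adjusted over 9364 genes). Over all genes 16.4% passed, and most of the named genes had been picked for small adjusted p within one system, so the larger share among them says nothing about the lists. No Ikaros family gene was among them. Bcl6 differed by -1.56 (adjusted p = 0.00329), with a log2 fold change of -0.14 in vivo and 1.45 in vitro. Among genes linked to Ikaros factors the difference was -1.01 for Bcl2, -1.05 for Gata3, -1.67 for Id2 and -1.76 for Il7r. Among Notch pathway genes it was 2.34 for Il2ra, 0.67 for Myc and -0.64 for Notch1. Among agonist selection genes it was -1.58 for Egr3, 0.60 for Cd160 and -1.35 for Lag3. Among SWI/SNF subunits it was -0.68 for Smarca2, -0.57 for Smarcc2 and -0.49 for Brd9. Groups of 2 libraries are too small for a test of outlying samples.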

How the results depend on the processing

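Ikzf2 in vitro kept its direction and its call in all 13 alternatives (log2 fold change -0.73 to -0.63, adjusted p 1.1e-13 to 0.0183). Ikzf3 in vitro kept its direction (-0.45 to -0.30 with a library left out) but lost its call in 3 of 4 such fits. Ikzf1 in vitro turned to -0.0173 with no filter, -0.0137 with the edgeR filter and -0.0190 and -0.0191 with limma on FPKM at pseudocounts of 1 and 0.1, and ranged from -0.0302 to 0.0459 with a library left out. In vivo, Ikzf2 passed with DESeq2 (-1.12), the replicate block (-1.08, adjusted p = 0.00044) and all 8 libraries (-1.10), and ranged from -1.45 to -0.69 with a library left out (adjusted p over all alternatives 2.07e-05 to 0.416). Ikzf3 in vivo passed with DESeq2 (-0.50), the replicate block (-0.49, adjusted p = 0.0211) and all 8 libraries (-0.48), and ranged from -0.66 to -0.32 with a library left out. The difference between systems ranged from -0.72 to 0.00093 for Ikzf2 and from -0.23 to 0.0579 for Ikzf3 with a library left out. The count of changed genes in vivo, 113, was 505 with DESeq2, 68 and 75 with limma on FPKM, 45 with limma on TPM, 1078 with the replicate block, 545 with all 8 libraries, 71 with replicate numbers crossed (a fit added after seeing the data) and 7 (without WT replicate 2) to 279 (without KO replicate 2) with a library left out. For the difference between systems, 1534, it was 533 to 1816 with a library left out, and limma on log2(TPM + 1) had 385 risen and 937 fallen, limma on log2(FPKM + 1) 657 and 819, and edgeR 615 and 919. Replicate numbers are not shown to pair libraries: their deviations correlated at -0.30 in vitro and 0.45 in vivo, with 2 pairs each. The block put Ikzf4 past the threshold in vivo (-0.92) and for the difference (-0.99). Of 351 alternatives for 27 calls of listed genes, 319 kept the call and 32 lost it (Hdac2, Chd3, Arid1a, Sin3b and Rbx1 in vitro, Cd160, Pdcd1 and Lag3 in vivo); of 42 for Ikzf4, which had no call, 4 gained one. None of these turned. The causes were not tested. Low counts limit Ikzf5.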
